A study of Mus musculus with 6 samples.

Results

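The 34 genes described here mark the endothelium, the cell layer that lines blood and lymphatic vessels, and the endocardium, its counterpart on the inner face of the heart chambers. They were chosen by gene symbol from a list of known markers and regulators, and all 34 were found among the 20893 genes of the deposited table. Gene expression was measured by stranded mRNA sequencing of C57BL6/J mouse hearts in 3 libraries with a germline knockout of Rbpms (labelled R1KO) and 3 wildtype libraries. Rbpms encodes an RNA-binding protein, and the comparison is of hearts with and without this gene. The title describes embryonic hearts whereas the design text places them at a neonatal stage and calls the controls littermates, so the stage was not settled here. The labels state neither the deleted part of Rbpms nor whether each library came from its own animal, so a p-value covers the spread of these libraries alone, which may be technical.

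Endothelial identity is held by transcription factors of the ETS and SoxF families, which bind the regulatory regions of receptor and junction genes. VEGF receptors and Tie receptors pass on growth and survival signals, and junction proteins such as VE-cadherin and claudin 5 seal the vessel wall. In the heart, coronary vessels grow partly from endocardium and from sinus venosus endothelium, a process in which apelin and its receptor are known participants.

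Each deposited value is a rounded read number after scaling of its library. Undoing the scaling gave 4163230 to 5805697 reads a library. The table gave Rbpms 375, 340 and 507 in the knockout libraries, in replicate order, and 1182, 1176 and 1317 in the wildtype libraries, so every library matched its label. Knockout replicate 3 stood apart. The squared difference between 2 libraries, over its counting variance and averaged over genes, was 6.96 to 9.68 for pairs with this library and 1.44 to 5.05 for other pairs. Knockout replicate 3 and wildtype replicate 1 were female by Xist and Y-linked genes, and the other 4 libraries were male.

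Promoter windows of 300 bases, 250 before and 50 after the start of transcription, were held by RefSeq (build GRCm38.p6) for 15 of the 34 members, in 20 windows. The ETS consensus CNGGAANT, read on both strands (ANTTCCNG), occurred in 6 of the 20 windows (30.0%), against 22.0% of all 32851 windows of the same length. The windows shown are those of Emcn and Eng, of which Emcn had the smallest p among the members and Eng the highest level per length among those with an unadjusted p under 0.05, and of Apln, which had the lowest fold change. Capitals mark the ETS matches, in reverse orientation at position -69 in Emcn and just after the start in Eng, and the Apln window held none. They lie at chr3:137340828-137341127 (Emcn, forward strand), chr2:32646345-32646644 (Eng, forward strand) and chrX:48034804-48035103 (Apln, reverse strand), each written from 5′ to 3′ along the gene.
Emcn: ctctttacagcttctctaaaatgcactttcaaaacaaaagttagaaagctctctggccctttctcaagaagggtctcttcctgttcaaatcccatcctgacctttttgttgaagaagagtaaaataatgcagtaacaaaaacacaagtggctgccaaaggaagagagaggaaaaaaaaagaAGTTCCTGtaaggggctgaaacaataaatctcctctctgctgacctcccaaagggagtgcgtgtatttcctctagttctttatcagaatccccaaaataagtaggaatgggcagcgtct
Eng: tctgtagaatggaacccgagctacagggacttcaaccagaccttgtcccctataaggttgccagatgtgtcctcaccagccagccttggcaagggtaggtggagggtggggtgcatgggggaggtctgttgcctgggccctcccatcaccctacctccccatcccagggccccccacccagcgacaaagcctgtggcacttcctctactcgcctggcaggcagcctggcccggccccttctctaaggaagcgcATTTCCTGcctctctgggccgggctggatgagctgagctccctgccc
Apln: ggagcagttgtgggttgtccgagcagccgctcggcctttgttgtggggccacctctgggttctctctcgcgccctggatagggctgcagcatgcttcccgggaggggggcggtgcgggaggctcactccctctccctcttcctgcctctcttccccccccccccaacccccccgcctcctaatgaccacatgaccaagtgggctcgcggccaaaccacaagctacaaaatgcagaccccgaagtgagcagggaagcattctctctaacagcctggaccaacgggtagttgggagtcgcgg
A match is a description of letters and not of binding. The forkhead motif GTAAACA occurred in 0 of the 20 windows (3.6% of all windows), the GATA motif AGATAA in 2 (11.2% of all) and the Sox motif ACAATG in 1 (12.6% of all), each on both strands.

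All 34 members were well above the detection limit. Their deposited values ran from 53 to 1838, and each member lay above the median level of all tested genes when expressed per length (10.1 RPKM, recovered reads per kilobase of exon scaled to the library's total, against a member median of 30.5). The order of levels per length began with Cdh5 (82.6 RPKM, mean over 6 libraries), the VE-cadherin of adherens junctions, and Eng (79.0 RPKM), the TGF beta co-receptor endoglin. S1pr1 (57.1), the sphingosine-1-phosphate receptor, Cldn5 (54.3), claudin 5, and Tie1 (52.4), the partner of the angiopoietin receptor, followed, and their ranges over libraries overlapped each other. The lowest were Flt4 (10.2), Vwf (10.2), Sox17 (10.7) and Apln (12.1). Cdh5 also had the densest coverage, 0.407 reads for each base of exon. The defining endothelial markers were therefore present in every library of both genotypes.

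**Figure D1:**
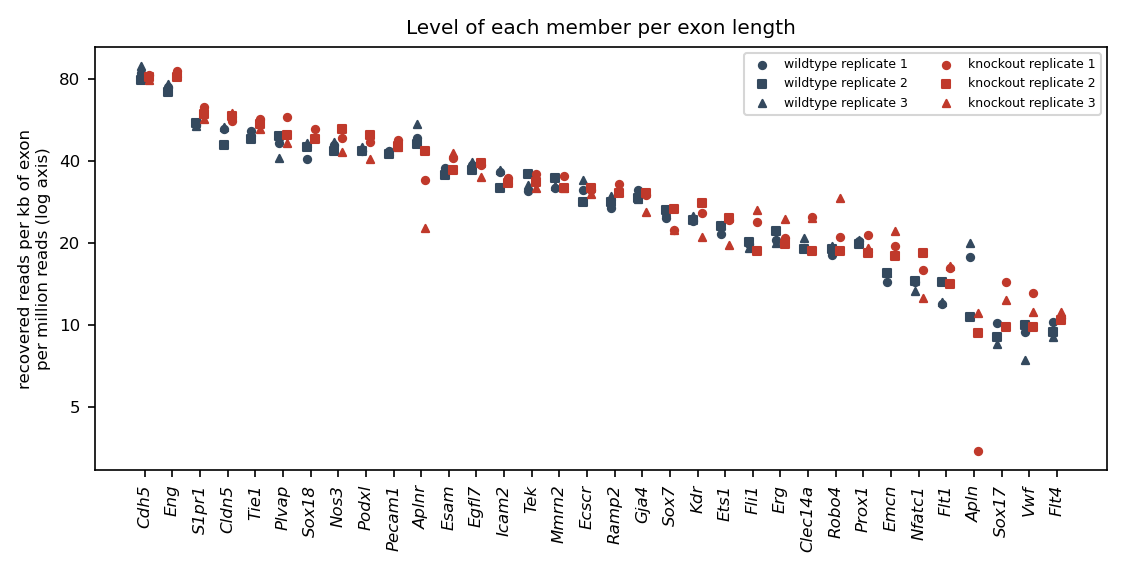
Level of each of the 34 members per exon length, as RPKM from recovered reads on a log axis, with 1 point for each library (dark, wildtype; red, knockout). Cdh5 and Eng lead at 82.6 and 79.0 RPKM on average, the group points of most members lie on top of each other, and Aplnr and Apln show the widest spread.

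In knockout hearts most of the 34 genes had slightly higher values than in wildtype hearts, led by the sialomucin gene Emcn at 1.33 times the wildtype level, while the apelin gene and its receptor gene had lower values. Fold changes, on the log2(value + 1) scale, were above 0 in 26 members and below 0 in 8. Their median was 0.13, against -0.0009 over all 14974 genes tested, of which 49.8% lay above 0. None of the 34 passed the test: 0 members had an adjusted p under 0.05, both by limma and by voom on the unscaled reads, where limma called 0.942% of all genes (141). Of these 141 genes 76 were higher and 65 lower in knockout libraries, a split that was 42 to 58 with equal library totals, 52 to 78 with equal upper quartiles and 27 to 46 by voom. An unadjusted p under 0.05 was reached by 10 members with higher and 1 with lower knockout values, against 8.54% and 7.86% of all genes (16.4% in either direction). These 11 members (32.4%) became 3 (8.82%, against 12.8% of all genes) without knockout replicate 1 and 6 (17.6% against 12.4%) without wildtype replicate 3. Without wildtype replicate 1 or 2 the count was 7 (20.6%, against 9.86% and 14.5% of all genes). It was 11 (32.4% against 19.8%) without knockout replicate 2 and 14 (41.2% against 19.5%) without knockout replicate 3. With equal upper quartiles it was 6 (17.6% against 16.7%), as without trend and robust moderation (17.6% against 15.5%). The 3 knockout values all lay above the 3 wildtype values in 12 members and all below them in 1, where these shares were 11.0% and 10.9% of all genes. Summed over the 34 members, the values were 23499 to 24860 in knockout and 22365 to 23163 in wildtype libraries. The sums over all genes were also higher in knockout libraries, at 4915815 to 4955677 against 4842551 to 4911837. With equal library totals 24 member fold changes were above 0, with a median of 0.11. A difference in the number of endothelial cells and a difference in RNA per endothelial cell cannot be told apart in whole-heart RNA.

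The differences were small. The absolute log2 fold change was under 0.1 in 14 members, from 0.1 to 0.25 in 13 and at least 0.25 in 7, and the 95% interval of a member reached a median of 0.19 to either side. For 10 members it lay wholly within 0.25 of 0, and for 27 within 0.5. Member medians against the wildtype mean were 0.16, 0.11 and 0.06 in the knockout libraries, in replicate order, and 0.00, -0.03 and 0.04 in the wildtype libraries. Every knockout median was therefore above every wildtype median, with wildtype replicate 3 (0.0409) and knockout replicate 3 (0.0647) nearest to each other. These 2 are so close that the scaling matters, as its choice moved the median fold change of all genes by up to 0.0359. Wildtype libraries differed among themselves too. Wildtype replicate 3 lay above the other 2 in 20 of the 34 members (33.6% of all genes), and wildtype replicate 2 below the other 2 in 16 (37.1%). Knockout replicates 1, 2 and 3 lay above all 3 wildtype libraries in 25, 19 and 17 members (29.3%, 27.9% and 35.0% of all genes). Without knockout replicate 3, 27 members had fold changes above 0 with a median of 0.14. In that fit 2 members, Emcn and Nfatc1, passed the test, against 727 of all 14974 genes. Without knockout replicate 2, Emcn and Sox17 passed, against 510 of all genes. In the 4 male libraries alone 27 of the 34 fold changes were above 0, with a median of 0.13 and 0 members past the threshold.

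**Figure D2:**
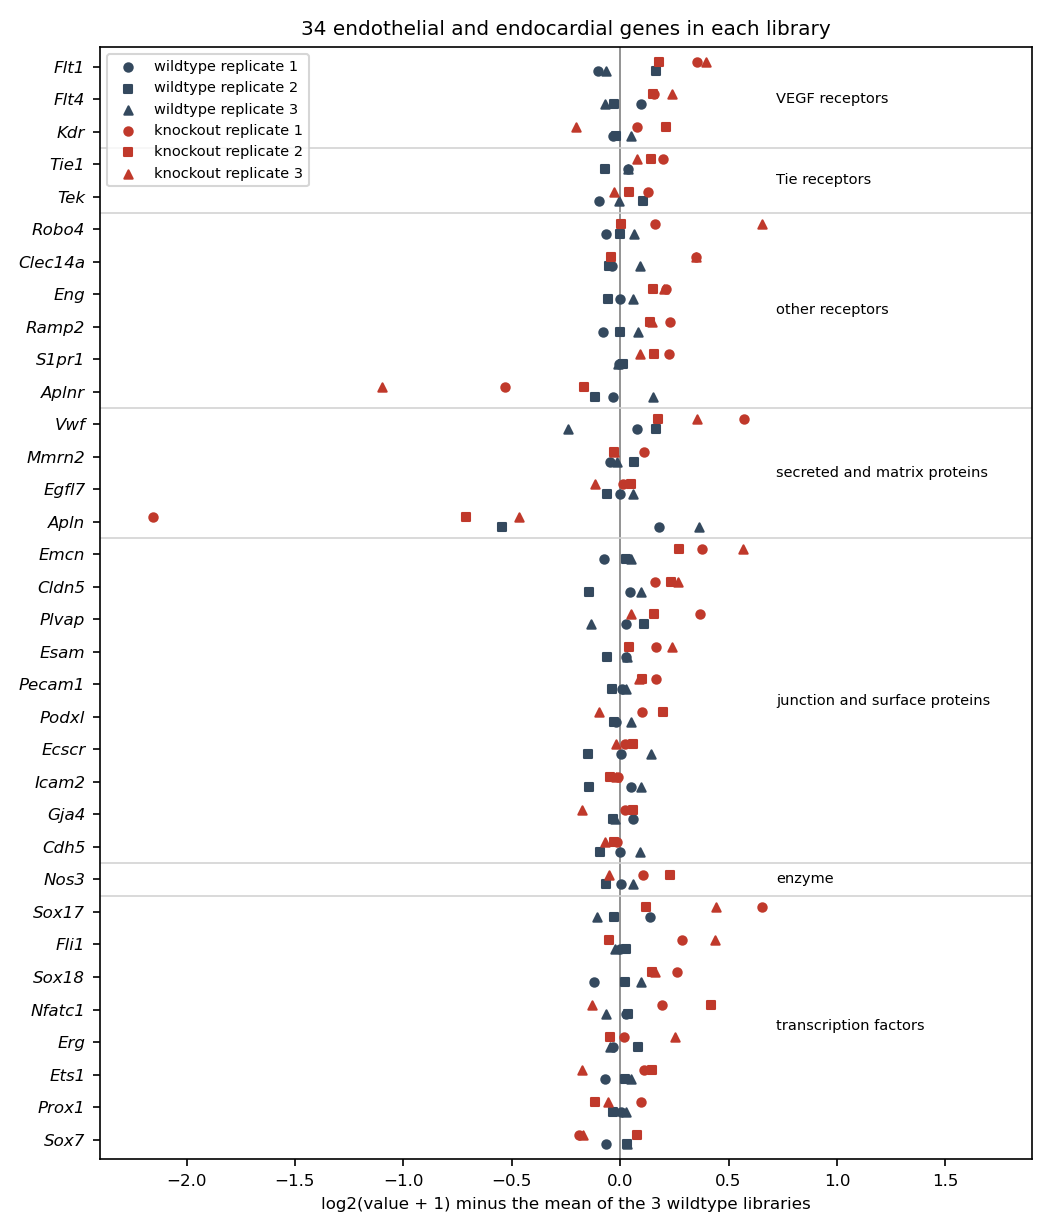
Each library's log2(value + 1) for the 34 members, grouped by role, minus the mean of the 3 wildtype libraries (dark, wildtype; red, knockout; the marker shape gives the replicate). Most red points lie a little to the right of 0, as for Emcn and Eng, whereas those of Aplnr and Apln lie to the left.

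Among the VEGF receptors, Flt1 showed the largest difference. Flt1 encodes a high-affinity VEGF receptor that also acts as a decoy. Its knockout libraries held 1073, 948 and 1104 and its wildtype libraries 780, 941 and 802. The groups did not overlap, although knockout replicate 2 and wildtype replicate 2 were nearly equal. It differed by 0.31 on the log2 scale (standard error 0.09, limma, adjusted p = 0.14). Flt4, the receptor for VEGF-C on lymphatic and sprouting endothelium, held 428, 426 and 454 against 411, 376 and 366. All knockout values were above the wildtype values (log2 0.18, standard error 0.07, adjusted p = 0.257). Kdr, which encodes the main signalling receptor for VEGF-A, stood at 1109 ± 158 against 1080 ± 33.7 (SD, n = 3 each). The knockout libraries of Kdr lay on both sides of the wildtype ones, and its log2 fold change of 0.03 had a 95% interval from -0.20 to 0.25.

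Of the Tie receptors, Tie1 held 1379, 1329 and 1270 in knockout and 1231, 1147 and 1231 in wildtype libraries. The groups did not overlap, with a log2 fold change of 0.14 (standard error 0.06, limma, adjusted p = 0.308). Tek, the angiopoietin receptor Tie2, stood at 783 ± 42.1 against 759 ± 54.2 (SD, n = 3 each; log2 0.05), and its groups overlapped.

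Of the remaining 6 receptors 5 had fold changes above 0. Eng had 1697, 1628 and 1687 in knockout and 1466, 1409 and 1526 in wildtype libraries. The groups of Eng did not overlap (log2 0.19, standard error 0.06, limma, adjusted p = 0.165). S1pr1 held 944, 898 and 858 against 804, 814 and 801, with tightly grouped wildtype libraries (log2 0.16, standard error 0.06, adjusted p = 0.242). Ramp2, a subunit of the adrenomedullin receptor that is needed for vessel integrity, held 534, 501 and 503 against 431, 454 and 481. Its groups did not overlap either (log2 0.17, standard error 0.07, adjusted p = 0.263). Robo4, an endothelial roundabout receptor, and Clec14a, a C-type lectin of endothelial cells, had log2 fold changes of 0.27 and 0.22 with overlapping groups. In Robo4 knockout replicate 3 held 767, while the other 5 libraries held 466 to 546. Without that library the log2 fold change of Robo4 was 0.08.

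Aplnr, the apelin receptor gene, was the member with non-overlapping groups in the other direction. The gene spans 84966569 to 84970267 of mm39 chromosome 2 (forward strand). Its knockout libraries held 618, 796 and 417 and its wildtype libraries 874, 825 and 992. Knockout replicate 3 was lowest and knockout replicate 2 lay close to the wildtype values. The log2 fold change of -0.60 (standard error 0.23, limma, adjusted p = 0.266) corresponds to 0.66 times the wildtype level. It was -0.35 without knockout replicate 3 and -0.82 without knockout replicate 2, with adjusted p = 0.119 and 0.0572, and -0.37 in male libraries only. Apln, the gene of the apelin peptide that Aplnr binds, lies outside the rule for detailed values and is given because of those values. It held 53, 146 and 173 in knockout and 272, 164 and 309 in wildtype libraries. Its groups overlapped, through wildtype replicate 2 (164) and knockout replicate 3 (173), and knockout replicate 1 was far below the rest. Its log2 fold change of -1.11 had a 95% interval from -2.29 to 0.07 (limma, adjusted p = 0.324), and was -0.59 without knockout replicate 1 and -1.34 in male libraries only. Apln spans 47114023 to 47123730 of mm39 chromosome X (reverse strand), and the female libraries held 173 (knockout) and 272 (wildtype). Apela, another ligand of this receptor, held 8 to 15 in all 6 libraries, too low for a small difference to be detectable.

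Of the other secreted proteins, Vwf, the von Willebrand factor of platelet adhesion, held 1034, 785 and 888 in knockout and 733, 780 and 588 in wildtype libraries. Its groups were separate only by the small gap between knockout replicate 2 and wildtype replicate 2 (log2 0.37, standard error 0.13, limma, adjusted p = 0.214). Vwf is also made by megakaryocytes. Of 10 listed megakaryocyte and platelet markers 4 were tested, with 0 past the threshold, and the summed value of the list was 312 to 445 in knockout and 229 to 268 in wildtype libraries. Itgb3, an integrin subunit of platelets that endothelium also makes, had the smallest p of that list (250, 138 and 253 against 100, 114 and 94, log2 1.00, limma, adjusted p = 0.0881). Pf4, a platelet chemokine, held 76 to 83 against 52 to 60. Ppbp, Gp5 and Gp9 were not at 0, with 3 to 13 in every library. The part of platelet RNA in the Vwf values was not tested. Egfl7, a secreted EGF-like protein, and Mmrn2, an endothelial matrix glycoprotein, had log2 fold changes of -0.02 and 0.02. Both have 95% intervals within 0.2 of 0.

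**Figure D3:**
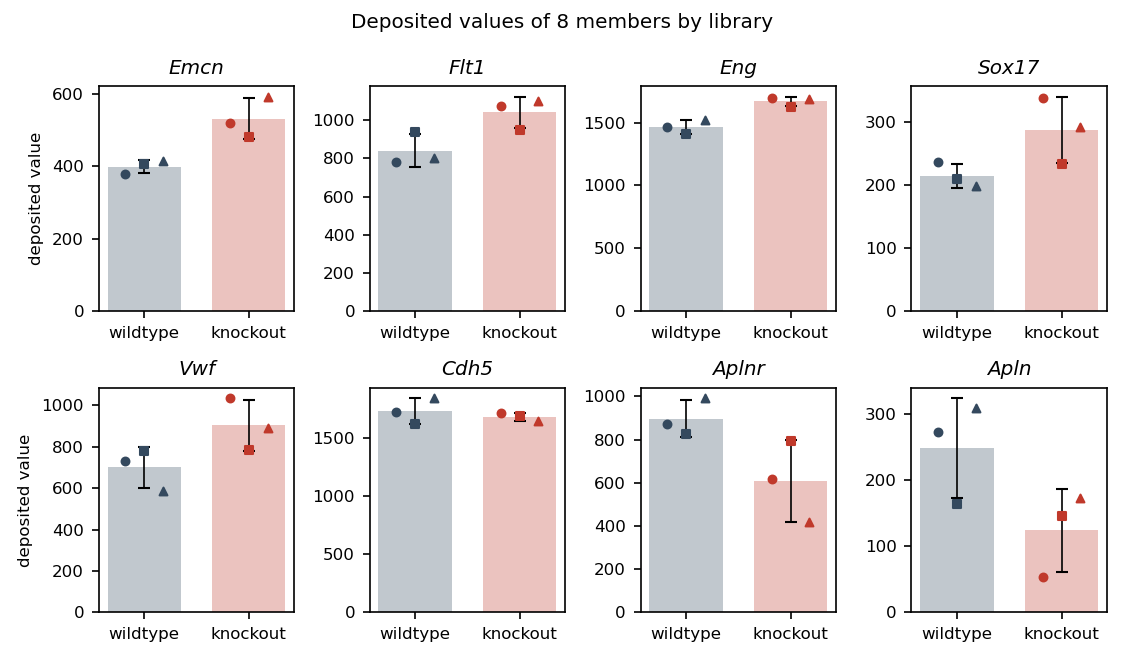
Deposited values of 8 members, with points for the 3 libraries of each group (circle, square and triangle for replicates 1, 2 and 3), bars for the mean and error bars for the SD. Emcn, Flt1, Eng and Vwf lie higher in all knockout libraries than in all wildtype libraries, Sox17 and Apln overlap, Cdh5 is level, and Aplnr lies lower.

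Of the 10 junction and surface genes, 4 had separate groups, all with the knockout above, and 0 passed the test. Groups were separate with the knockout above in 11.0% of all genes and with it below in 10.9%. Emcn, the endomucin of venous, capillary and endocardial endothelium, spans 137046828 to 137137946 of mm39 chromosome 3 (forward strand). It held 519, 481 and 592 in knockout and 378, 406 and 413 in wildtype libraries. The lowest knockout value was above the highest wildtype value. Its log2 fold change of 0.41 had a standard error of 0.09 (limma, adjusted p = 0.0669), and adjusted p ran from 0.0277 to 0.33 over 18 alternatives. It passed the threshold without knockout replicate 2 (0.0278) and without knockout replicate 3 (0.0277). In these fits 510 and 727 of all tested genes passed. Cldn5 held 389, 410 and 419 against 359, 315 and 372, without overlap (log2 0.22, standard error 0.08, adjusted p = 0.224). Pecam1, the CD31 adhesion molecule, and Esam, another junctional adhesion molecule, also had separate groups, at 1419 ± 41.2 against 1308 ± 30.1 and at 571 ± 39.4 against 515 ± 18.2 (SD, n = 3 each). Their log2 fold changes were 0.12 and 0.15.

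Cdh5 held 1707, 1688 and 1642 in knockout and 1722, 1616 and 1838 in wildtype libraries. All knockout values lay within the wildtype range (log2 -0.04, standard error 0.07, limma, adjusted p = 0.819), and the 95% interval ran from -0.19 to 0.11. Icam2, an adhesion molecule for leukocytes, the connexin gene Gja4 of arterial endothelium and Ecscr, an endothelial surface protein, had log2 fold changes of -0.02, -0.03 and 0.02. Podxl, a sialomucin also made by epicardium and kidney podocytes, stood at 0.07, and Plvap, the diaphragm protein of fenestrae, at 0.19. The groups of these 5 genes overlapped. Nos3, the endothelial nitric oxide synthase, stood at 978 ± 94.6 against 914 ± 39.6 (SD, n = 3 each; log2 0.09), with overlap.

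None of the transcription factors passed the test. Of the SoxF genes, Sox17, an arterial and endocardial regulator, held 338, 233 and 292 in knockout and 236, 210 and 199 in wildtype libraries. Knockout replicate 2 lay within the wildtype range (log2 0.41, standard error 0.14, limma, adjusted p = 0.187). Without that library Sox17 passed the threshold (log2 0.55, adjusted p = 0.0374), in a fit where 510 of all tested genes passed. Without knockout replicate 1 its log2 fold change was 0.28 (adjusted p = 0.425), and 6 of all tested genes passed. Sox18, a regulator of vascular and lymphatic development, held 417, 386 and 389 against 320, 354 and 372, without overlap (log2 0.19, standard error 0.08, adjusted p = 0.281). Sox7 stood at 388 ± 41.6 against 413 ± 15.6 (SD, n = 3 each; log2 -0.09), and its groups overlapped. Whether the 3 SoxF genes differ from each other in their response was not tested. The ETS genes Fli1, Erg and Ets1 had log2 fold changes of 0.22, 0.07 and 0.03, and all 3 overlapped. Fli1 and Ets1 are also made by leukocytes, whose summed marker values were 1076 to 1248 in knockout and 1097 to 1212 in wildtype libraries.

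Nfatc1, which directs endocardial cushion and valve formation, held 582, 681 and 465 in knockout and 519, 523 and 487 in wildtype libraries. Knockout replicate 3 was the lowest of all libraries and knockout replicates 1 and 2 were the highest. Its log2 fold change was 0.16 (limma, adjusted p = 0.568). Without knockout replicate 3 it was 0.31 and passed the threshold (adjusted p = 0.0451), in a fit where 727 of all tested genes passed. Without knockout replicate 2 it was 0.03 (adjusted p = 0.906). Prox1, the regulator of lymphatic identity, is made by cardiomyocytes as well. It stood at 813 ± 61.4 against 825 ± 18.1 (SD, n = 3 each), with a 95% interval of the log2 fold change from -0.18 to 0.13. Summed cardiomyocyte markers overlapped between groups, at 26164 to 29262 in knockout and 26969 to 29463 in wildtype libraries.

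Other vascular genes were taken from 8 lists that hold none of the members. Of 90 tested genes of these lists, 2 rose and 0 fell, with 69 fold changes above 0 and a median of 0.16 (0.508% and 0.434% of all genes rose and fell). The capillary carbonic anhydrase gene Car4 rose from 248, 253 and 242 in wildtype to 374, 327 and 330 in knockout libraries (log2 0.47, standard error 0.08, limma, adjusted p = 0.0456). Ece1, which encodes the endothelin-converting enzyme, rose from 1165, 1225 and 1101 to 1602, 1435 and 1505 (log2 0.38, standard error 0.07, adjusted p = 0.0472). In both genes the groups were well separated. Car4 lost the threshold in 9 of 18 alternatives and Ece1 in 11 of 18. Among them were voom (0.0667 and 0.0667) and limma fits without knockout replicate 1 or any wildtype replicate (0.113 to 0.231 and 0.0974 to 0.241). The scaling mattered as well. The 2 genes had adjusted p of 0.0553 and 0.0578 with equal library totals (limma), and of 0.0532 and 0.0599 with equal upper quartiles. In these 2 fits 0 of the 90 genes passed, against 100 and 130 of all tested genes. Over the 8 lists 11 genes rose without knockout replicate 2, 11 rose and 1 fell without knockout replicate 3, and 0 changed when knockout replicate 1 or any wildtype replicate was left out. Over all tested genes, 510 passed without knockout replicate 2 and 727 without knockout replicate 3. Only 6 passed without knockout replicate 1, and 3, 0 and 0 without wildtype replicates 1, 2 and 3, respectively.

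By kind of vessel, the endocardial list had all 8 fold changes above 0 with a median of 0.38 and 0 past the threshold. Its library medians were 0.59, 0.12 and 0.56 in knockout and -0.07, 0.18 and -0.17 in wildtype replicates 1, 2 and 3, so the groups overlapped through wildtype replicate 2. Nrg1, the neuregulin ligand that endocardium presents to myocardium, had the smallest p of the list (54, 40 and 130 against 17, 17 and 13, log2 2.01, limma, adjusted p = 0.0601). It passed in 5 of 17 alternatives, among them a term for sex (0.0208) and male libraries only (0.0249). In these 2 fits 223 and 256 of all tested genes passed, against 141 in the main fit. The arterial list had 11 of 12 fold changes above 0, a median of 0.16 and 0 past the threshold, with the smallest p in Notch1 (log2 0.21, adjusted p = 0.141), a receptor of arterial fate. The venous and lymphatic list had 4 of 8 above 0, a median of 0.01 and 0 past the threshold. In it the hyaluronan receptor gene Lyve1, shared by lymphatic vessels and macrophages, had the smallest p (log2 0.81, adjusted p = 0.0657). The capillary list had 6 of 10 above 0 with a median of 0.06, and Car4 was its 1 risen gene.

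Ligands and partners of the VEGF and Tie receptors had 8 of 10 fold changes above 0, a median of 0.21 and 0 past the threshold. The receptor phosphatase gene Ptprb, which acts on Tek and VE-cadherin, had the smallest p (log2 0.31, limma, adjusted p = 0.0911). Partners of the apelin, sphingosine-1-phosphate and endoglin systems had 6 of 10 above 0 and 0 past the threshold. Their smallest p was that of Acvrl1, the type I receptor that works with endoglin (460, 433 and 552 against 381, 370 and 361, log2 0.37, adjusted p = 0.104). Other endothelial transcription factors had 8 of 13 above 0 and 0 past the threshold, with the smallest p in Gata2 (log2 0.40, adjusted p = 0.118). Further pan-endothelial genes, among them Ptprb again, had 19 of 21 above 0 and a median of 0.17, and Ece1 was their 1 risen gene. Separate groups were found in 13 of the 21, all with the knockout above. Over all tested genes 11.0% had separate groups with the knockout above and 10.9% with it below.

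**Figure D4:**
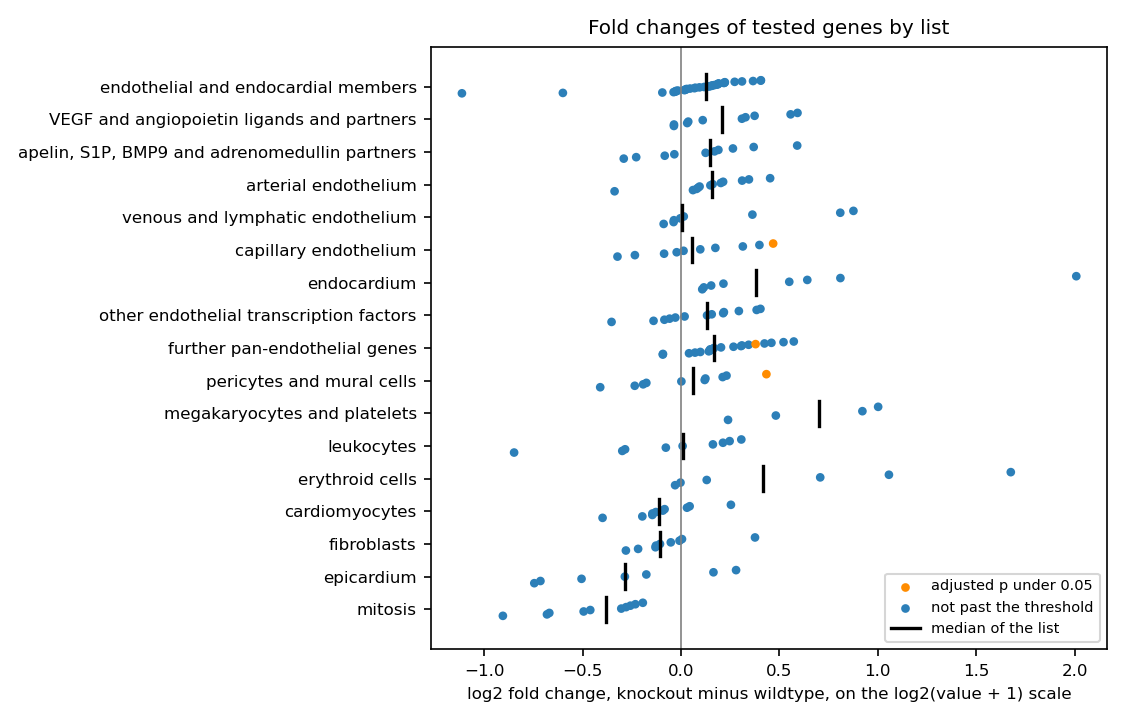
Log2 fold changes (knockout minus wildtype, log2(value + 1) scale) of the tested genes of each list, 1 point a gene, with a black line at the list median and orange for an adjusted p under 0.05. The member median is 0.13, the endocardial median 0.38 and the mitosis median -0.38, and Car4, Ece1 and Cspg4 are the 3 orange genes.

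Markers of other cells were read in the same way. Pericyte and mural genes, of cells that wrap the endothelium, had 6 of 10 fold changes above 0 and 4 below, with a median of 0.06. Their groups were separate with the knockout above in 2 and below in 1 (11.0% and 10.9% of all genes). In this list 1 gene rose and 0 fell, where 0.508% and 0.434% of all genes did. Cspg4, the NG2 proteoglycan, rose from 958, 858 and 860 to 1096, 1246 and 1278 (log2 0.43, standard error 0.08, limma, adjusted p = 0.0472). Cspg4 lost the threshold in 10 of 18 alternatives. Among them were equal library totals (limma, adjusted p = 0.0553) and equal upper quartiles (0.0542). It was also lost in fits without knockout replicate 1 (0.0915) or any wildtype replicate (0.144 to 0.223). With 1 of these libraries left out, 0 to 6 of all tested genes passed. Cardiomyocyte, fibroblast and epicardial markers had medians of -0.11, -0.11 and -0.28, and leukocyte markers 0.01, with 0 genes past the threshold in each list. Fold changes were below 0 in 7 of 10 cardiomyocyte, 7 of 9 fibroblast, 5 of 7 epicardial and 4 of 9 leukocyte markers. Of these lists the genes with the smallest p were Myh7 (log2 0.25), Tcf21 (0.38), Wt1 (0.28) and C1qb (0.31). Myh7, Tcf21 and Wt1 therefore ran against most of their own lists. The epicardial medians were 0.10, 0.07 and -1.30 in knockout replicates 1, 2 and 3. Erythroid markers had a summed value of 2119 in knockout replicate 3 and 691 to 886 in the other libraries. Mitosis genes had all 10 fold changes below 0 with a median of -0.38 and 0 past the threshold, and library medians of -0.94, -0.70 and 0.36 in the knockout. The smallest p there was that of Aurkb (log2 -0.67, adjusted p = 0.214). The part of these cell mixtures and of proliferation in the member values was not tested.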

How the data were processed

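The deposited values are a score: per the file's values, the authors scaled each library's reads and rounded them to whole numbers. Per the submitters' processing notes, the build was mm39 and the tools, in no stated role or order, included DESeq2 1.36.0, featureCounts 2.0.4, Picard 3.0.0, STAR 2.7.11a and Trimmomatic 0.39. The sources used here give neither the strand setting nor any filter.

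Factors were estimated from the spacing of values up to 400. In the 3 libraries with factors under 1, 7.02% to 31.71% of these low values could come from more than 1 read number. Because the values are not raw counts, limma 3.58.1 in R 4.3.3 was used on log2(value + 1), with robust moderation and an intensity trend, fitted to all 6 libraries without covariate. A gene was tested where 3 or more libraries held 10 or more (14974 of 20893), with Benjamini-Hochberg adjustment over all of them and a threshold of 0.05. Tests were two-sided. The fit was tested on simulated data. Exon lengths came from GENCODE vM21 (GRCm38), matched by gene identifier for all 34 members and 98.2% of tested genes, with no coordinates used. Intervals are 95% intervals of the limma fit.

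The members, gene lists, motifs and alternatives were chosen with earlier results of these data known. Values are printed for members with an unadjusted p under 0.05 and for the 5 with the most reads per base of exon, and for each list up to 3 called genes, or the gene with the smallest p. Other members are given by means, ranges or fold changes. Per-library values of Apln, Nfatc1 and Robo4 are printed outside this rule, and Pf4, Ppbp, Gp5, Gp9 and Apela were named outside this rule after their values were seen. The gene with the smallest p of the erythroid list is not reported here.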

Additional observations from a re-analysis of the deposited data

How the results depend on the processing

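Over 18 alternatives 23 of the 34 members kept the sign of their fold change, and the member median stayed above 0, from 0.09 with equal upper quartiles to 0.14 without knockout replicate 3. The number of members past the threshold was 0 to 2 when 1 library was left out, 2 without knockout replicates 2 and 3 and 0 in the other 4 cases, and 0 in each other alternative. The number of changed genes over all tested was 0 to 727 when 1 library was left out. It was 218 with no filter, 83 with a value of at least 50 in 3 libraries, 24 without trend and robust moderation, 73 by voom on recovered reads, 256 in male libraries only and 223 after adding a term for sex.

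With the replicate number as a block 23 genes and 0 members passed. Same-numbered libraries had deviations from the group means that correlated at -0.17, -0.11 and -0.13, and no library correlated best with its own number. Deviations within a group sum to 0 and all these correlations were small, so they cannot decide whether the numbers pair the libraries.

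Signs turned only in members near 0. With equal upper quartiles the log2 fold changes were -0.0071 in Kdr, -0.018 in Mmrn2, -0.0152 in Ecscr and -0.0087 in Ets1. With equal library totals they were -0.003 in Mmrn2 and -0.0002 in Ecscr, and by voom -0.0041 in Mmrn2. In male libraries only they were 0.0339 in Egfl7, 0.07 in Gja4 and -0.0316 in Erg. With 1 library left out they ran from -0.0623 to 0.1446 in Kdr, -0.0031 to 0.0994 in Tek, -0.05 to 0.0331 in Egfl7, -0.0274 to 0.0501 in Mmrn2, -0.0837 to 0.0091 in Cdh5, -0.0964 to 0.0227 in Icam2, -0.0749 to 0.041 in Gja4, -0.0537 to 0.0927 in Ecscr, -0.0157 to 0.1346 in Erg, -0.0327 to 0.129 in Ets1 and -0.0843 to 0.0203 in Prox1. The cause was not tested. The 3 libraries a group limit the precision: the 95% interval of a member's log2 fold change reached a median of 0.19 to either side.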
